A study of Mus musculus with 4 samples.

Results

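Ribosome biogenesis genes and nucleolar MYC targets were examined in MLL-AF9 transduced mouse marrow cells that lacked or kept Elovl6, an enzyme of fatty acid elongation. The set held 45 named genes of the 51826 features in the deposited table, and all 45 were found. They were chosen by name from known roles, with earlier results of these data known. Shares of members set against all genes are therefore descriptions. The first group was Elovl6 knockout (KO, 2 libraries) and the other was wild type (WT, 2 libraries). In both genotypes, lineage-negative, c-kit positive bone marrow cells carried MLL-AF9, an oncogenic fusion found in acute myeloid leukaemia, and were sampled at week 2. The labels name no strain, no age and no separate animals or cultures, and do not say how Elovl6 was deleted, so p-values measure only the spread between these libraries, which may be technical.

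Ribosomes are built in the nucleolus. RNA polymerase I transcribes the precursor of the large ribosomal RNAs, small nucleolar ribonucleoproteins (snoRNPs) guide its modification and early cleavage, and separate sets of assembly factors fold and trim the small and the large subunit. The transcription factor MYC, which binds the E-box CACGTG as a dimer with MAX, is known to act on many genes of this pathway and on polyamine and nucleotide synthesis, and proliferating blood progenitors and leukaemia cells depend on this supply of ribosomes.

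The E-box was looked up around the start sites of the 45 genes, since it is the sequence through which the MYC and MAX members of the set act on other genes. RefSeq promoter windows (GRCm38.p6, 250 bases before to 50 after the start) were at hand for 38 of the 45. CACGTG reads the same on both strands and was present in 9 of those 38 genes (23.7%), against 2187 of 27025 genes with a window (8.09%). The 9 genes are Max itself, the large subunit factors Nop2, Pes1 and Grwd1, the small subunit factors Wdr43, Utp20 and Tsr1, the nucleolar protein gene Mybbp1a and the kinase gene Nme1. Each stretch below is printed 5′ to 3′ on the strand of the gene with the motif in capitals, and Nme1 has a match before each of its annotated starts.
Max, 3 bases before the start, chr12:76962234-76962263, minus strand: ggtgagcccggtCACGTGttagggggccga
Nop2, 60 bases before, chr6:125131811-125131840, plus strand: gtgtccctggatCACGTGtgttccggtgcc
Pes1, 3 bases after, chr11:3963965-3963994, plus strand: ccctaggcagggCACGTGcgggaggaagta
Grwd1, 35 bases after, chr7:45830740-45830767, minus strand: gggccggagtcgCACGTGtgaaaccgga
Wdr43, 18 bases after, chr17:71616220-71616249, plus strand: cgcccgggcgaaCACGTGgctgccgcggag
Utp20, 38 bases after, chr10:88826765-88826789, minus strand: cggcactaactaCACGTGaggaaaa
Tsr1, 25 bases after, chr11:74898092-74898121, plus strand: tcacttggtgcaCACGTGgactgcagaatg
Mybbp1a, 41 bases after, chr11:72441355-72441376, plus strand: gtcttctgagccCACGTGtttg
Nme1, 18 bases before, chr11:93968273-93968302, minus strand: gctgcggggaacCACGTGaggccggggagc
Nme1, 29 bases before another start, chr11:93968037-93968066, minus strand: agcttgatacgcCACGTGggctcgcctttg

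The libraries held 8986502 and 9699502 gene counts in KO, and 9883596 and 11941588 in WT. Uniquely placed intron reads numbered 6670711 and 7428675 in KO, and 7626392 and 8936201 in WT. Elovl6, the targeted gene, had 17 and 34 gene counts in KO, and 1290 and 1673 in WT. The labelled stem and progenitor cells were represented: none of 10 marker genes was at 0, and their sum was 2700 and 2700 CPM (counts scaled to library size by TMM) in KO, and 2570 and 2710 CPM in WT. Every member except Mycn had between 211 and 23172 gene counts in each library.

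Most ribosome biogenesis genes stood slightly lower in KO than in WT, and none passed the test for gene counts alone. The log2 fold change (KO over WT) was negative for 41 of 45 members (91.1%), against 50.7% of the 11738 genes tested. Both KO libraries lay below both WT libraries for 34 of 45 members (75.6%), against 27.0% of all genes, and above them for 2 (4.44%), against 26.8%. The median log2 fold change of the members was -0.14, a difference of -9.03% in level, and that of all genes was -0.0037. After Benjamini-Hochberg adjustment over all genes, 0 of 45 members were called by edgeR's quasi-likelihood test, against 2.8% of all genes (329 of 11738; 0.98% lower and 1.82% higher). The unadjusted p was under 0.05 for 22 members (48.9%, against 20.8% of all genes), of which 20 were lower (44.4%, against 9.11%) and 2 higher (4.44%, against 11.7%). The 2 higher members are Max and Mycn in this count and in that without overlap. Mycn passed the filter on low counts only through KO. With DESeq2, 2 members were called lower, Ncl and Npm1 (4.44%, against 1.28% of all genes), and limma-voom called 0. Without KO replicate 1, 7 members were called lower (15.6%, against 4.37% of all genes), and with no filter on low counts 13 were (28.9%, against 3.67%). The authors' deposited table holds 3 members with a corrected p under 0.05 (1.71% of its features), which are Srm (fold -1.224), Npm3 (-1.272) and Mycn (8.177); a negative fold there means lower in KO.

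The lower level was present in both KO libraries, and was larger in replicate 2. Relative to the WT mean, the median over the 44 members other than Mycn was -0.0953 and -0.195 (log2) in the KO libraries, and 0.0314 and -0.0321 in the WT libraries. In these libraries 38 and 41 of the 44 members lay below the WT mean in KO, and 13 and 31 did in WT. Their summed level was 10570 and 10050 CPM in KO, and 11590 and 11290 CPM in WT, so the groups did not overlap. This is a description, since the members share the same libraries. With 2 libraries against 2, an exact two-sided p could not fall below 1 of 3. Ncl and Npm1 held the largest parts of these sums.

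**Figure D1:**
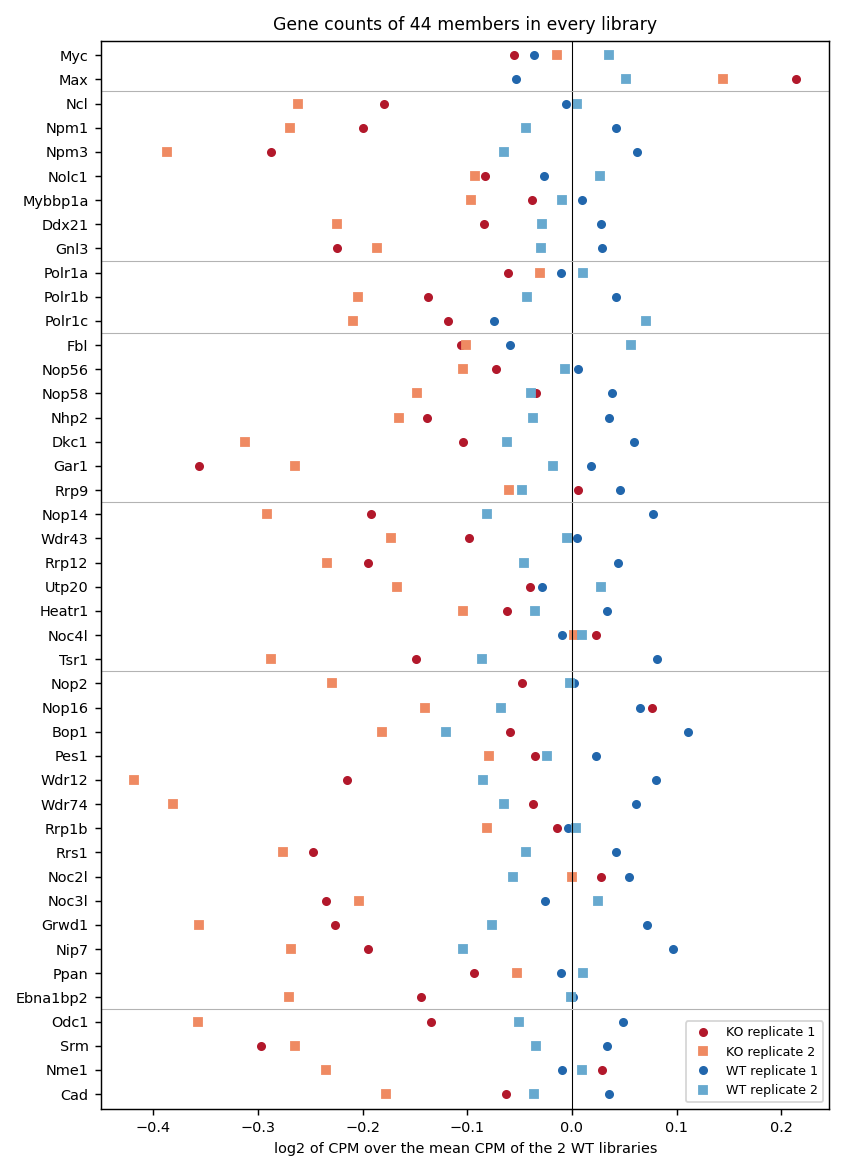
Gene counts of 44 members (all but Mycn) in every library, as log2 of CPM over the mean of the 2 WT libraries; circles are replicate 1 and squares replicate 2, KO red and WT blue, with lines between the role groups. Both KO libraries lie left of both WT libraries for 34 members.

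**Figure D2:**
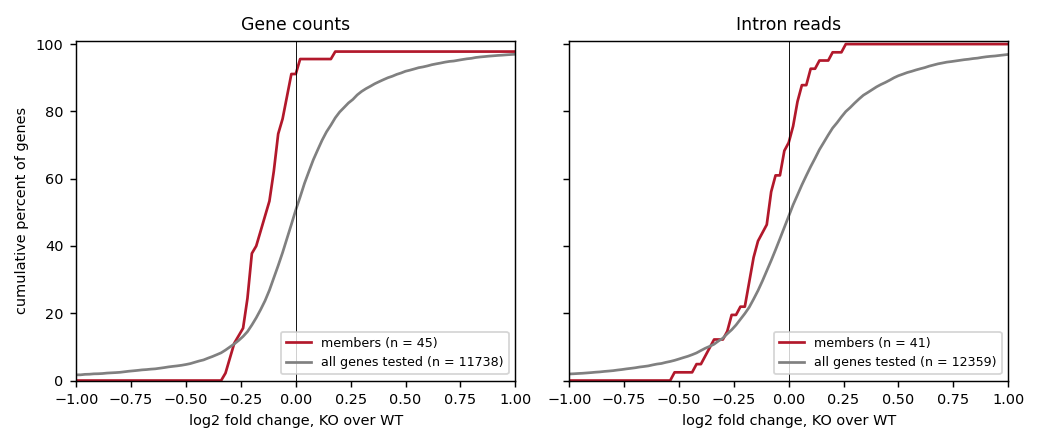
Cumulative percent of genes (y axis) against log2 fold change, KO over WT (x axis, shown from -1 to 1), for members (red) and all genes tested (grey), in gene counts (left) and intron reads (right). The member curve stands left of that of all genes near 0, and does not reach 100% in gene counts within the axis because Mycn lies beyond it at 3.05.

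Of the 3 MYC network members, Myc lay near no change and Max lay higher in KO. Mycn had more counts in KO but too few to be read as a difference. Myc, the main MYC gene of blood cells (chromosome 15, 61985391 to 61990374, plus strand, mm10), had 384.2 and 395.3 CPM in KO, and 389.1 and 409.1 CPM in WT. The groups overlapped, and the log2 fold change was -0.034 (SE 0.057, adjusted p = 0.777 by edgeR). Max, its obligate partner, had 105.1 and 100.1 CPM in KO, and 87.3 and 93.9 CPM in WT. Both KO libraries were above both WT libraries, with a log2 fold change of 0.18 (SE 0.068) that missed the threshold (adjusted p = 0.202 by edgeR).

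Mycn, a MYC paralogue known from stem cells and neural tumours, was close to the detection limit. It had 10 and 13 gene counts in KO, and 0 and 3 in WT, where 3 counts are the floor used here. The ratio of the summed counts scaled by library size was 8.92, with an exact 95% counting interval of 2.69 to 46.4, which covers counting error only. The fitted log2 fold change of 3.05 (SE 0.85) depends on the prior count and was not called (adjusted p = 0.101 by edgeR). Mycn passed the filter on low counts only through KO, the group where it is high. Neither the ratio nor the fitted value is therefore support for a difference. Its intron reads, too few for a test, were 5 and 7 in KO, and 0 and 1 in WT.

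**Figure D3:**
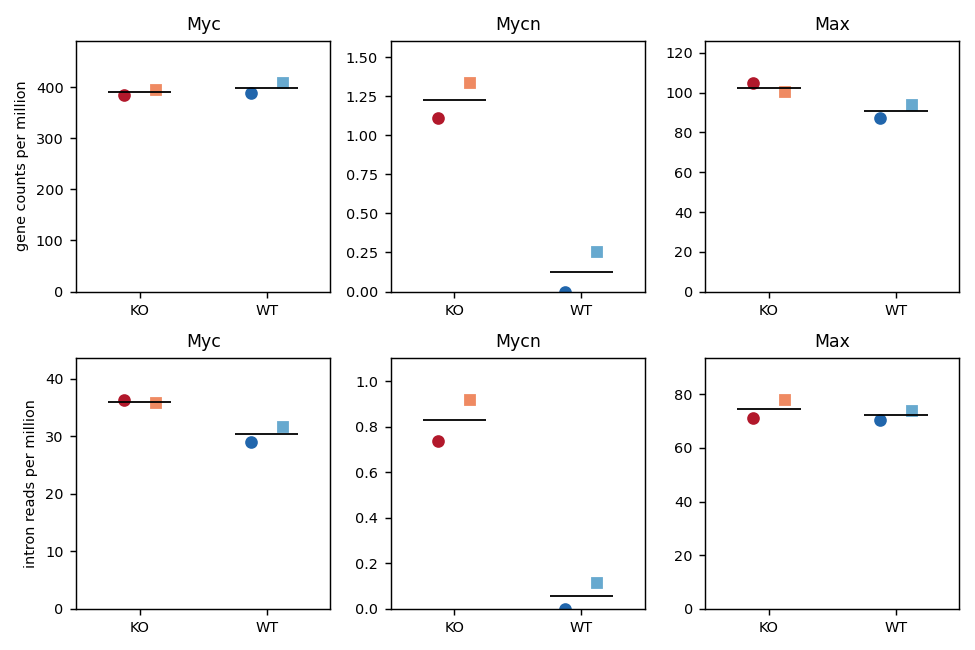
Gene counts (upper row) and intron reads (lower row), both as CPM, of Myc, Mycn and Max in the 2 KO libraries (red) and the 2 WT libraries (blue); points are libraries, bars are group means, and each axis starts at 0. KO points lie above WT points for Mycn in both rows, for Max gene counts and for Myc intron reads.

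The nucleolar chaperones and scaffolds were lower in KO in all 7 members, with a median log2 fold change of -0.20, and the KO and WT libraries did not overlap in any of them. Of all genes tested, 27.0% were lower in KO without overlap, the share to hold beside this and the counts by role that follow. None of the 7 passed the adjusted test. Npm1, nucleophosmin, a histone chaperone and frequent mutation site in acute myeloid leukaemia (chromosome 11, 33152287 to 33163206), had 1219 and 1161 CPM in KO, and 1441 and 1358 CPM in WT. Its log2 fold change was -0.23 (SE 0.059, adjusted p = 0.089 by edgeR), and it was the most abundant member, at 299 RPKM on average (the authors' level per exon length and depth). Ncl, nucleolin, which acts in ribosomal RNA transcription and processing, had 1706 and 1611 CPM in KO, and 1925 and 1939 CPM in WT. Its log2 fold change was -0.22 (SE 0.056, adjusted p = 0.0896 by edgeR).

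Npm3, a member of the nucleophosmin family, had 69.9 and 65.2 CPM in KO, and 89.0 and 81.5 CPM in WT, the lowest log2 fold change in the set at -0.34 (SE 0.080, adjusted p = 0.0762 by edgeR). Gnl3, nucleostemin, a nucleolar GTPase of stem and proliferating cells, had 157.0 and 161.2 CPM in KO, and 187.2 and 179.7 CPM in WT. Its log2 fold change was -0.20 (SE 0.055, adjusted p = 0.103 by edgeR). The other 3, Ddx21 (an RNA helicase), Nolc1 (a chaperone of snoRNPs) and Mybbp1a, lay between -0.15 and -0.067, with libraries that did not overlap.

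RNA polymerase I was represented by 3 subunit genes, and each was lower in both KO libraries than in both WT libraries. Polr1a, the largest catalytic subunit, had 217.7 and 222.4 CPM in KO, and 225.4 and 228.8 CPM in WT, a small difference of -0.046 on the log2 scale (SE 0.054, adjusted p = 0.68 by edgeR). The log2 fold changes were -0.17 for both Polr1b and Polr1c. None passed the adjusted test, and all 3 stood at a similar level, from 8.21 to 9.05 RPKM.

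The snoRNP core proteins were lower in KO in 7 of 7 members, 5 of them without overlap, at a median log2 fold change of -0.10. The extremes were Gar1, of the pseudouridylating H/ACA particles, at -0.31 (41.98 and 44.7 CPM in KO, and 54.4 and 53.1 CPM in WT), and Rrp9, of the U3 particle, at -0.026. The H/ACA genes Nhp2 and Dkc1, the pseudouridine synthase, stood at -0.15 and -0.20, and the box C/D genes Fbl, Nop56 and Nop58 at -0.10, -0.088 and -0.090. None of the 7 passed the test.

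The small subunit factors were lower in 6 of 7 members with no overlap in each of the 6, and none was called in gene counts. Nop14, of the early processome, had 91.6 and 85.6 CPM in KO, and 110.4 and 98.9 CPM in WT, a log2 fold change of -0.24 (SE 0.078, adjusted p = 0.147 by edgeR). Rrp12, which acts in maturation and export of both subunits in yeast, had 107.8 and 104.9 CPM in KO, and 127.2 and 119.5 CPM in WT, a log2 fold change of -0.21 (SE 0.062, adjusted p = 0.117 by edgeR). Heatr1 had 311.5 and 302.6 CPM in KO, and 333.0 and 317.5 CPM in WT, a difference of -0.083 on the log2 scale (SE 0.057, adjusted p = 0.456 by edgeR). Tsr1, Wdr43 and Utp20 stood at -0.22, -0.13 and -0.10, and Noc4l, at 0.013, was the exception, with a negative sign under upper quartile scaling.

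The large subunit factors were lower in 13 of 14 members, 10 without overlap, at a median log2 fold change of -0.17. Wdr12, which forms a complex with Pes1 and Bop1 needed for large subunit maturation, had 156.0 and 135.5 CPM in KO, and 191.4 and 170.7 CPM in WT. Its log2 fold change was -0.31 (SE 0.087, adjusted p = 0.111 by edgeR), while its partners Bop1 and Pes1 stood at -0.12 and -0.057, and whether the 3 differ from each other was not tested. Rrs1, a factor that carries the small RNA of the large subunit in yeast, had 92.7 and 90.9 CPM in KO, and 113.4 and 106.8 CPM in WT. Its log2 fold change was -0.26 (SE 0.063, adjusted p = 0.0799 by edgeR).

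Noc3l, a nucleolar complex factor, had 59.75 and 61.1 CPM in KO, and 69.1 and 71.6 CPM in WT, at -0.22 (SE 0.074, adjusted p = 0.164 by edgeR). Grwd1, Nip7, Ebna1bp2, Wdr74, Nop2, Ppan, Rrp1b and Nop16 lay between -0.29 and -0.028 in log2 fold change, and Noc2l at 0.015 was the exception, also negative under upper quartile scaling.

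The metabolic MYC targets were lower in all 4 members, 3 of them without overlap. Srm, spermidine synthase (chromosome 4, 148591503 to 148594993), had 174.5 and 178.4 CPM in KO, and 219.4 and 209.3 CPM in WT. Its log2 fold change of -0.28 (SE 0.056) lay closest to the threshold of all members (adjusted p = 0.0517 by edgeR). Odc1, which makes putrescine at the first step of polyamine synthesis, had 202.0 and 173.1 CPM in KO, and 229.4 and 214.2 CPM in WT, at -0.24 (SE 0.084, adjusted p = 0.17 by edgeR). Cad, of pyrimidine synthesis, and Nme1, a nucleoside diphosphate kinase, stood at -0.12 and -0.099.

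**Figure D4:**
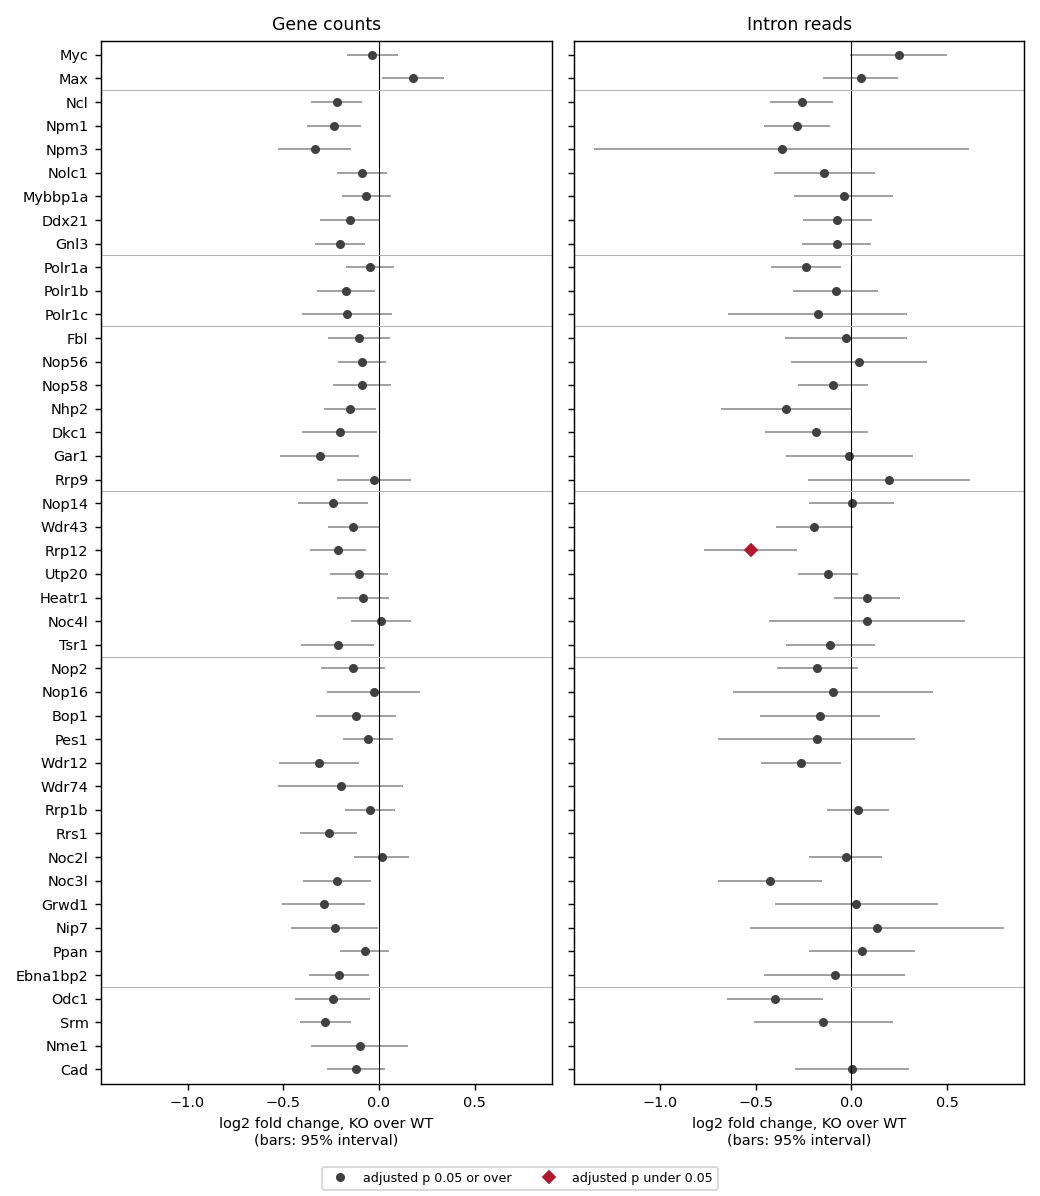
Log2 fold change, KO over WT (x axis), of 44 members (all but Mycn) in gene counts (left) and of the 41 tested in intron reads (right); bars are 95% intervals of the edgeR fit, and lines part the role groups. Rrp12 in intron reads is the one point past the threshold of adjusted p 0.05.

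Across the 44 members the size of the difference did not follow abundance (Pearson r = -0.019 and Spearman rho = 0.034 between log2 RPKM and log2 fold change, a description, since the values share libraries). Members with the E-box in their window had a median log2 fold change of -0.10. The 29 other members with a window had one of -0.15. Both KO libraries lay below both WT libraries in 7 of 9 and in 22 of 29, against 27.0% of all genes. The windows ran from 250 bases before to 50 after the start, and sites elsewhere were not looked up. The 29 members may therefore hold an E-box outside the window, and 7 members had no window. Whether MYC acts on these genes was not tested.

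Intron reads come largely from unspliced RNA and gave a separate readout of the same genes. Of the 45 members, 41 had enough for the test (Mycn, Rrs1, Wdr74 and Nme1 did not), and 29 of 41 were negative (70.7%), against 48.9% of the 12359 genes tested. Both KO libraries lay below both WT libraries in 17 of 41 (41.5%), against 25.4% of all genes, and above them in 5 (12.2%), against 26.3%. The median log2 fold change was -0.095, against 0.0063. By edgeR's test 1 member was called lower, Rrp12 (2.44%), against 2.23% of all genes, and 0 higher, against 2.59%, or 4.81% in both directions, so the share of members called was not above the background. An unadjusted p was under 0.05 for 8 members (19.5%), against 19.8% of all genes. All 8 were lower, against 9.59% of all genes lower and 10.2% higher. Summed over the 41 members the level was 2149 and 2074 CPM in KO, and 2348 and 2261 CPM in WT.

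Rrp12 intron reads fell in KO. They stood at 33.1 and 31.9 CPM in KO, and 49.3 and 44.4 CPM in WT, without overlap, with a log2 fold change of -0.53 (SE 0.10, adjusted p = 0.0305 by edgeR). The call was lost without KO replicate 2 (adjusted p = 0.0865), without WT replicate 1 (adjusted p = 0.187), without WT replicate 2 (adjusted p = 0.0551) and with DESeq2 (adjusted p = 0.114), and the direction held in each.

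Npm1 intron reads were 122.0 and 119.8 CPM in KO, and 154.0 and 141.0 CPM in WT, and those of Ncl 96.0 and 95.7 CPM in KO, and 112.8 and 116.7 CPM in WT. On the log2 scale Npm1 stood at -0.29 (SE 0.075, adjusted p = 0.0767 by edgeR) and Ncl at -0.26 (SE 0.071, adjusted p = 0.0852), neither past the threshold. Odc1 intron reads were 36.3 and 32.4 CPM in KO, and 43.3 and 47.2 CPM in WT, at -0.40 (SE 0.11, adjusted p = 0.0853 by edgeR). Noc3l had 23.0 and 23.4 CPM in KO, and 30.2 and 32.1 CPM in WT, at -0.43 (SE 0.12, adjusted p = 0.0905 by edgeR). Each of these 4 genes was lower in both KO libraries without overlap, as was Polr1a, at 80.8 and 87.7 CPM in KO, and 101.3 and 97.2 CPM in WT (-0.24, SE 0.079, adjusted p = 0.149 by edgeR).

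By role, intron reads were negative in 7 of 7 nucleolar genes (median log2 fold change -0.14), 3 of 3 RNA polymerase I genes (-0.18), 8 of 12 large subunit genes (-0.091), 5 of 7 snoRNP genes (-0.029), 4 of 7 small subunit genes (-0.11) and 2 of 3 metabolic genes (-0.15). Gene counts and intron reads were both negative in 28 of the 41 members (68.3%), against 34.7% of the 10366 genes in both tests, and both readouts come from the same libraries. The 2 MYC network genes tested were not negative. For Myc the intron reads lay higher in KO, at 36.3 and 35.7 CPM, and 28.95 and 31.7 CPM in WT, with a log2 fold change of 0.25 (SE 0.11, adjusted p = 0.268 by edgeR).

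Gene counts were then set against intron reads in one model, to ask whether the KO difference was the same in both. By edgeR 0 of 41 members were called, as with limma-voom, against 1.31% of all genes (0.415% lower and 0.897% higher). The unadjusted p was under 0.05 for 5 members (12.2%, against 12.0% of all genes), 3 lower (against 5.23%) and 2 higher (against 6.76%). The 5 were Rrp12 and Polr1a, with a lower value in introns than in gene counts (differences of 0.31 and 0.19 on the log2 scale, adjusted p = 0.159 and 0.304), and Myc, Nop14 and Heatr1, with the opposite sign (-0.28, -0.24 and -0.16, adjusted p = 0.192, 0.325 and 0.392). The member median was -0.032, and 22 of 41 were negative (53.7%, against 49.7%).

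The wider pathway was read from 7 gene lists, which hold none of the 45 members. These lists too were chosen with earlier results of these data known. Of 160 genes tested, 124 were negative in gene counts (77.5%, against 50.7% of all genes) with a median log2 fold change of -0.097. By edgeR's adjusted test 2 fell (1.25%, against 0.98% of all genes) and 1 rose (0.625%, against 1.82%), so the share called, 1.88%, was not above that of all genes, 2.8%. Negative log2 fold changes were found in 36 of 40 small subunit processome genes, 38 of 46 large subunit assembly genes, 12 of 13 RNA exosome genes, 10 of 12 snoRNP assembly genes, 9 of 12 RNA polymerase I factors and 15 of 21 polyamine and nucleotide synthesis genes. In the MYC and MAX network 4 of 16 were negative, with a median of 0.088. In intron reads 85 of 149 genes were negative (57.0%, against 48.9% of all genes) with a median of -0.043, and 0 were called by edgeR, against 4.81% of all genes.

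The 2 that fell are both small subunit processome genes. Wdr75 had 97.6 and 94.4 CPM in KO, and 118 and 121 CPM in WT, at -0.32 (SE 0.059, adjusted p = 0.0452 by edgeR), and Mphosph10 had 82.3 and 77.8 CPM in KO, and 103 and 99.8 CPM in WT, at -0.34 (SE 0.065, adjusted p = 0.0489). The one that rose was Mxi1, which competes with MYC for MAX, with 107 and 102 CPM in KO, and 73.9 and 79.8 CPM in WT, at 0.44 (SE 0.070, adjusted p = 0.0347). Each call was lost when a WT library was left out: without WT replicate 1 the adjusted p was 0.345, 0.392 and 0.339 for Wdr75, Mphosph10 and Mxi1, and without WT replicate 2 it was 0.246, 0.242 and 0.185.

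Among the stem and progenitor genes both KO libraries lay above both WT libraries in 2 of 10, against 26.8% of all genes. They lay below them in 4 of 10, against 27.0%. Cd93, a surface receptor, rose, with 509 and 559 CPM in KO, and 368 and 361 CPM in WT, a log2 fold change of 0.55 (SE 0.064, adjusted p = 0.0124 by edgeR). Meis1, a leukaemia cofactor of Hoxa9, had 216 and 179 CPM in KO, and 239 and 247 CPM in WT. It was not called in gene counts (log2 fold change -0.30, SE 0.089, adjusted p = 0.121 by edgeR), and its intron reads fell (-0.41, SE 0.085, adjusted p = 0.0354 by edgeR). Whether the calls of Cd93 and Meis1 hold with a library left out is not given here. Hoxa9 and Myb stood at -0.30 and -0.20 in gene counts, with adjusted p of 0.0839 and 0.16 by edgeR.

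Markers of several other cell types, though not all, also differed between the groups. Monocyte and macrophage genes summed to 1630 and 2520 CPM in KO, and 926 and 1040 CPM in WT. Both KO libraries lay above both WT libraries in 13 of 14, against 26.8% of all genes, and none was at 0. Primary granule genes, of early granulocytes, summed to 8630 and 6370 CPM in KO, and 9760 and 10000 CPM in WT. Of these, 6 of 7 were lower without overlap, against 27.0% of all genes. Proliferation genes summed to 7250 and 7070 CPM in KO, and 7270 and 7450 CPM in WT, and 8 of 14 were lower without overlap, against 27.0% of all genes. A negative log2 fold change in gene counts was found in 13 of 14 (median -0.073, 0 called), against 50.7% of all genes. Mki67, the exception, held 2270 and 2290 CPM in KO, and 2030 and 2280 CPM in WT, and the other 13 summed to 4990 and 4790 CPM in KO, and 5240 and 5170 CPM in WT. KO replicate 2, which held the lower member level, also held the higher monocyte level and the lower primary granule, late neutrophil and eosinophil levels. In WT, replicate 2 held the lower member level (11290 CPM, against 11590 CPM in replicate 1). It held the higher primary granule level there, and the higher monocyte level. A relation between these levels was not tested. Eosinophil genes summed to 54.1 and 19.6 CPM in KO, and 409 and 95.4 CPM in WT, with Ccr3 at 0, and the late neutrophil sums overlapped, at 2340 and 933 CPM in KO, and 975 and 1470 CPM in WT. Mast cell and basophil genes summed to 86.6 and 81.0 CPM in KO, and 126 and 107 CPM in WT. Erythroid and megakaryocyte genes, with Hba-a1 at 0, summed to 10.4 and 6.99 CPM in KO, and 27.7 and 29.7 CPM in WT. T and NK cell genes, with Cd3e, Cd8a and Ncr1 at 0, summed to 38.3 and 56.8 CPM in KO, and 26.9 and 22.2 CPM in WT. Stromal and endothelial genes summed to 133 and 166 CPM in KO, and 171 and 171 CPM in WT. KO was lower without overlap in 6 of 9 eosinophil and 3 of 9 mast cell and basophil genes. The same held for 6 of 14 erythroid and megakaryocyte genes, of which 3 had enough counts for the test. KO was higher without overlap in 3 of 9 T and NK cell genes. Stromal and endothelial genes split, with 2 of 9 higher and 3 of 9 lower. The shares of all genes were 27.0% lower and 26.8% higher. The part of these cell types in the ribosome biogenesis difference was not tested, and in bulk RNA fewer cells of a type and less RNA per cell cannot be told apart.

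**Figure D5:**
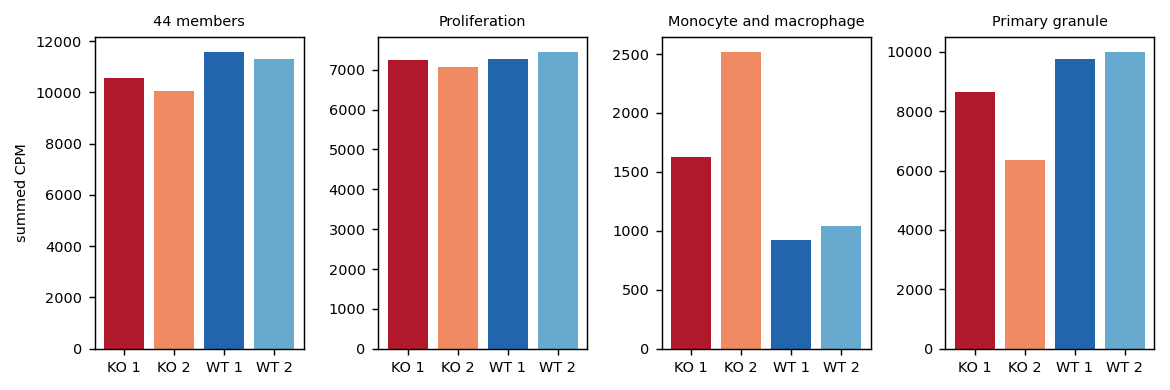
Summed CPM (y axis from 0, a separate scale in each panel) of 44 members, 14 proliferation genes, 14 monocyte and macrophage genes and 7 primary granule genes in each KO library (red) and WT library (blue). The members, the primary granule genes and the proliferation genes are lower in both KO libraries, and the monocyte and macrophage genes higher. The proliferation sums lie close together (7250 and 7070 CPM in KO, and 7270 and 7450 CPM in WT).

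Counting could touch some members. Fewer than 60% of exon reads were uniquely placed for 5 of them: Wdr74 (7.85%), Fbl (27.9%), Nme1 (44.8%), Npm1 (49.7%) and Odc1 (55.4%), whose values are uncertain for that reason. With uniquely placed reads alone their log2 fold changes were -0.34, -0.15, -0.049, -0.26 and -0.28, each still negative. Among these 5, Nme1 moved most between uniquely placed and total exon reads, at -0.243 with the latter. Nme1 shares its strand and place with the counted gene Gm20390 (359 and 396 gene counts in KO, and 585 and 549 in WT). With junction reads Wdr74 stood at -0.507 (SE 0.389). A further 11 members, among them Wdr12 and Heatr1, overlap a counted protein-coding gene on the opposite strand, Npm3 overlaps the antisense gene Gm15491 (1 and 0 gene counts in KO, and 1 and 3 in WT), and whether strand was used in counting is not stated in the labels or headers. Of the annotated snoRNAs, 24 lie inside 9 members, and all were listed at 0.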

How the data were processed

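RNA-seq was analysed for 4 libraries of total RNA (2 Elovl6 KO and 2 WT, grouped by sample title). Libraries were made with a directional kit, per the labels' protocols. The submitters' processing notes name the build mm10. Neither labels nor headers state the aligner, the counter or whether strand was used. The authors deposited whole-number counts per gene (96.0% to 96.2% uniquely placed), counts of uniquely placed exon, junction and intron reads, RPKM, and, per the file headers, an EDGE test with corrected p-values and signed folds (a score without a log scale). Of 51826 features, 18706 have no exons. Features without exons held 9.42% to 10.3% of intron reads, and the predicted gene Gm26917 held 11.1% to 13.8%.

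Counts were tested with edgeR 4.0.16 (quasi-likelihood test, R 4.3.3) after filterByExpr (minimum count 10, minimum total 15) and TMM scaling, with Benjamini-Hochberg adjustment over all genes at 0.05; DESeq2 1.42.0 and limma 3.58.1 (voom) were alternatives. Intron reads had their own library sizes, and the third test took read type and library as terms over 8 columns. SE is the fold change over the root of F. The tests were checked on simulated data. Tables and figures used Python 3.11.15, pandas 2.3.3, scipy 1.17.1 and matplotlib 3.10.9. Replicates differed by more than sampling noise (chi-square per degree of freedom 6.48 in KO and 4.42 in WT), so none was counted as a repeat. The depths are in the report, and counting errors are the least error of any value.

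The members and lists were chosen with earlier results of these data known. Gene IDs of all 45 members matched GENCODE vM21, which gives other coordinates for 5, and promoter sequence is from RefSeq. Full values are given for 16 members: Myc, Mycn and Max, any past the threshold, and those with the 8 smallest p in gene counts, 5 in intron reads and 5 in the comparison of both. Wdr75, Mphosph10 and Mxi1 were named as the list genes past the threshold, and the remaining members are named with a value each so that all are accounted for. Coordinates are counted from 1. The result of 1 further marker list is not reported here.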

Additional observations from a re-analysis of the deposited data

How the results depend on the processing

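The number of members called lower in gene counts was 0 in the analysis as reported and depended on the setting: 13 with no filter on low counts (plus 1 higher, Mycn), 2 with DESeq2, and 1 each with upper quartile scaling, with uniquely placed exon reads and with junction reads (an alternative chosen after the data were seen), and 0 to 7 when each library was left out (7 without KO replicate 1). All genes called in gene counts, 329, became 1677 with no filter, 95 at a mean of at least 10 CPM, and 14 to 1449 with each library left out (14 without WT replicate 1, 25 without WT replicate 2, 1449 without KO replicate 1). The members' median stayed negative, from -0.186 to -0.0943, with each library left out.

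In intron reads 1 member was called, against 0 with DESeq2 and 4 with no filter. Those 4 were lower and are 9.09% of members, against 3.09% of all genes. All genes called, 595, became 1565 with no filter, 370 at a mean of at least 10 CPM and 287 to 1299 with each library left out. The median was -0.0559 with the library sizes of the gene counts, where the median of all genes stood at 0.047, and -0.136 to -0.0688 with each library left out.

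For gene counts against intron reads, the 136 genes called became 30 to 215, and the median -0.0502 to 0.00896, with each library left out. Among the members with full values the sign turned for Myc gene counts with junction reads (0.108), and for Nop14 intron reads with RLE scaling (-0.00221), upper quartile scaling (-0.016), no filter (-0.0034) and DESeq2 (-0.00276). With each library left out it turned for the intron reads of Nop14 (-0.0689 to 0.0623), Max (-0.0224 to 0.11) and Srm (-0.325 to 0.0164), and for the difference between readouts in Srm (-0.312 to 0.0597), Npm3 (-0.208 to 0.243) and Wdr12 (-0.121 to 0.0222). The cause was not tested. Among all members, junction reads turned the sign of Rrp9 too (0.0941), upper quartile scaling that of 2 in gene counts (Noc2l and Noc4l), and leaving out 1 library that of 1 to 3 in gene counts, except without KO replicate 1, where 0 turned, and of 5 to 6 in intron reads.

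Libraries with the same replicate number share only that number: the correlation of their deviations from the group means was 0.11 over 11738 genes, from 2 pairs. With the replicate block, 5 members were called lower in gene counts (Npm1, Npm3, Rrs1, Srm and Wdr12), or 11.1%, against 2.41% of all genes. In intron reads 5 were (Ncl, Noc3l, Npm1, Odc1 and Rrp12), or 12.2%, against 5.09% of all genes. All genes called in both directions were 875, 1430 and 253 in the 3 tests.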
